A study of Mus musculus with 8 samples.

Results

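The genes of integrins, laminins and ligands of the basement membrane were followed in nuclear RNA of GABAergic neurons from mouse cortex. The members were the protein-coding genes whose GENCODE M21 symbol names an integrin α or β chain, a laminin α, β or γ chain, a nidogen, nephronectin, fibronectin, agrin, perlecan, vitronectin or tenascin-C. These are 45 of 55450 annotated genes: 18 integrin α genes, 8 integrin β genes, 11 laminin genes, 2 nidogens and 6 other ligands. Per the labels, both groups carried a Cre driver for GABAergic neurons, whose promoter is not named, and a Cre-dependent nuclear fluorescent reporter. Fluorescent nuclei were sorted from the frozen cortex of single juvenile mice, whose exact age is not given, with 1 cortex per library. Controls were Thra+/+ mice (libraries 1, 2, 3 and 4). Mutants were Thra+/AMI mice (libraries 6, 7 and 8), in which Cre switches on a dominant-negative form of the thyroid hormone receptor made by Thra, in the cells where the driver is active.

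Integrins are cell-surface receptors made of an α and a β chain, and the pair decides which matrix protein is bound. Laminins are trimers of an α, a β and a γ chain that assemble into the sheet of the basement membrane, where nidogens, perlecan (Hspg2) and agrin (Agrn) join them to other components. In the brain this sheet lies mainly around vessels and under the meninges, while neurons also make single chains and ligands.

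Total counts ran from 11797788 to 13804734 over the controls and from 10747169 to 12941251 over the mutants. A table deposited for a further mutant, numbered 10, equalled that of mutant 7 in all 55220 genes compared, so both were counted as 1 library. Values below are counts per 1000000 reads (CPM), scaled between libraries by the trimmed mean of M values, and every ± is an SD over 4 controls or 3 mutants. Thra itself was at 108, 126, 119 and 105 CPM in the control libraries 1 to 4 and at 77.6, 96.3 and 88.6 CPM in the mutant libraries 6, 7 and 8, counted over both alleles (adjusted p 0.0543 by edgeR, not called). Markers of GABAergic neurons (7 genes, Dlx1 listed at 0) summed to 5078 to 6430.0 CPM in the controls and 5658 to 6928 CPM in the mutants, against at most 148 CPM for 8 markers of glutamatergic neurons. Of the 684 protein-coding genes that lie inside other genes without sharing an exon, 684 were listed at 0 in every library, against 24.7% of the 11728 that share no base with another gene. A gene that lies inside another is therefore not measured here. These are bulk libraries, in which fewer cells of a type and less RNA per cell cannot be told apart.

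Of the 45 members, 41 had enough reads to be tested. In edgeR's quasi-likelihood test, 9 of the 41 passed a Benjamini-Hochberg adjusted p of 0.05 and are called below, against 9.42% of all 16448 tested genes. In the mutants 5 members were lower (4.78% of all tested genes were called lower), namely Itga7, Npnt, Lama3, Itga5 and Lama4. Another 4 were higher (4.63% of all tested genes), namely Itgb6, Itga8, Lama1 and Lamb1. Without control 2, control 3 or mutant 8 the test called 2 higher members. Over all tested genes these fits called 506, 494 and 398 higher, in the same order, against 762 in the reported fit. Without mutant 6 or mutant 7 edgeR called 0 higher members, with 6 at an unadjusted p under 0.05 in each of these fits. Calls of higher genes fell over all genes too, to 362 of 16835 without mutant 6 and 360 of 16876 without mutant 7. CPM did not overlap between the groups in 13 members, against 22.0% of all tested genes. The median log2 fold change of mutant over control was -0.22 over the 41 members, 26 of which lay below 0, and -0.01 over all tested genes.

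**Figure D1:**
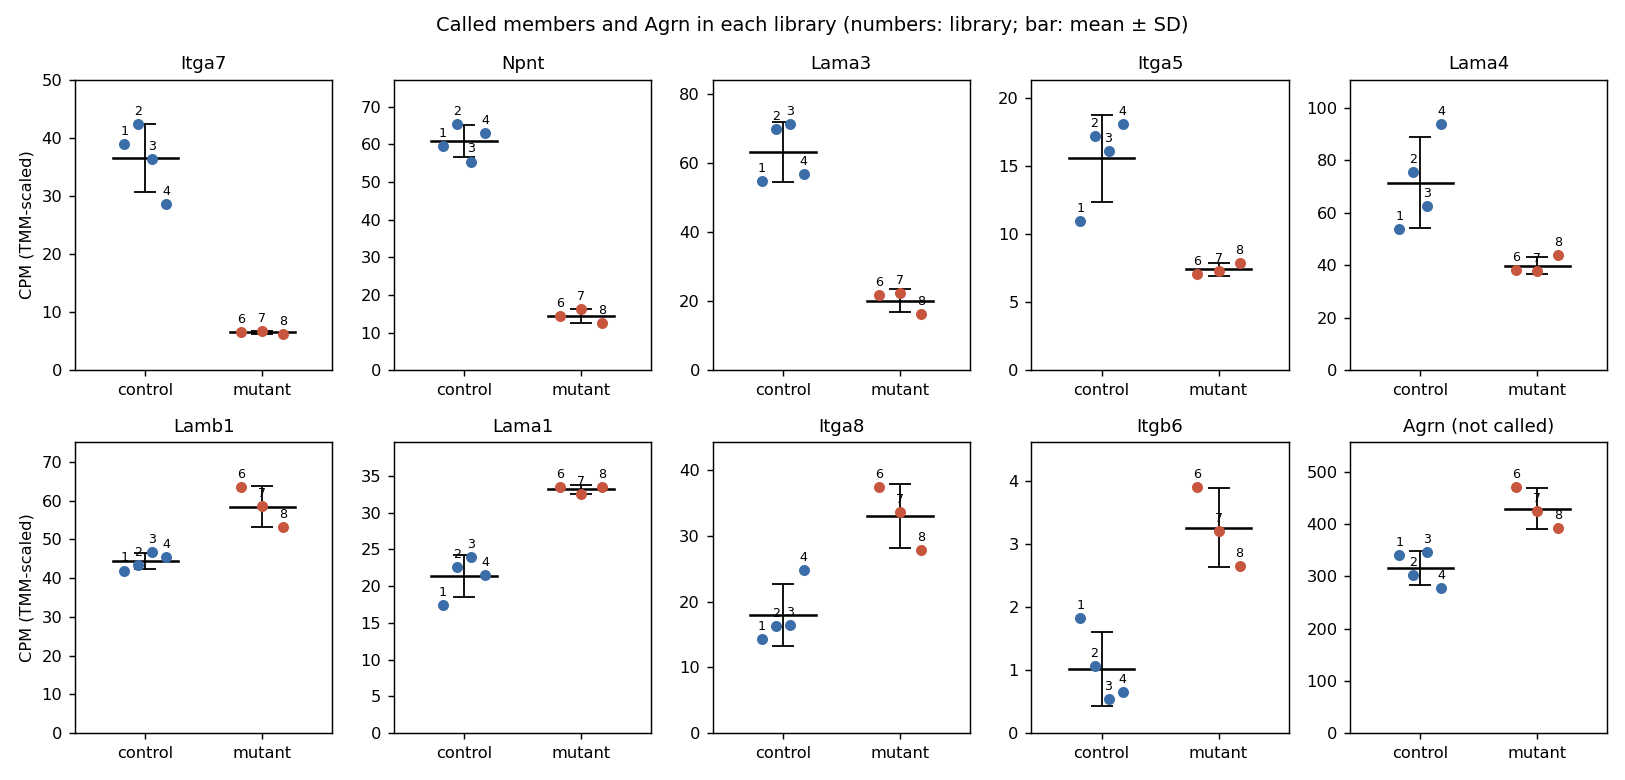
CPM (vertical axes, from 0) of the 9 called members and of Agrn, which was not called, in each library. Points are libraries with their number, horizontal bars are group means and error bars SD (n = 4 controls, n = 3 mutants); the groups overlap in no panel, and the mutants of Itga7 (6.26 to 6.79 CPM) lie far below its controls (28.6 to 42.5 CPM).

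Among the integrin α chains, Itga7 differed most between the groups. It encodes α7, which forms a laminin receptor with β1 and is best known from muscle. Controls 1 to 4 held 39.0, 42.5, 36.5 and 28.6 CPM, and mutants 6, 7 and 8 held 6.57, 6.79 and 6.26 CPM. The mutants were almost equal, and even the lowest control, number 4, lay far above them. Itga7 (ENSMUSG00000025348.9, chromosome 10, 128933818 to 128958282, plus strand; all coordinates are GRCm38) fell by 2.49 on the log2 scale (SE 0.17; adjusted p 4.86e-06 by edgeR), which is 5.60-fold.

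Itga5 encodes α5, the chain of the main fibronectin receptor α5β1. It was at 10.9, 17.2, 16.1 and 18.1 CPM in controls 1 to 4 and at 7.04, 7.25 and 7.90 CPM in mutants 6, 7 and 8. Control 1 was the lowest control and the nearest to the mutants. Itga5 (ENSMUSG00000000555.8, chromosome 15, 103344286 to 103366763, minus strand) fell by 1.07 on the log2 scale (SE 0.20; adjusted p 0.00529 by edgeR).

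Itga8 was the only integrin α gene called higher. It encodes α8, which pairs with β1 and binds nephronectin with high affinity. Controls 1 to 4 held 14.3, 16.2, 16.4 and 24.8 CPM, and mutants 6, 7 and 8 held 37.5, 33.6 and 27.8 CPM. Control 4 was the highest control and came closest to mutant 8, the lowest mutant, without overlap. Itga8 (ENSMUSG00000026768.10, chromosome 2, 12106632 to 12301922, minus strand) rose by 0.88 on the log2 scale (SE 0.19; adjusted p 0.0117 by edgeR), which is 1.84-fold. The call was lost without mutant 6 (0.78, adjusted p 0.0773) and without mutant 7 (0.87, adjusted p 0.0584).

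The other 12 tested α chains were not called. Itga1, a chain of a collagen receptor, was at 7.14, 5.59, 4.57 and 7.18 CPM in controls 1 to 4 and at 4.77, 2.94 and 3.99 CPM in mutants 6, 7 and 8, so that mutant 6 lay above control 3. Its log2 fold change was -0.64 (SE 0.26; unadjusted p 0.0272, adjusted p 0.154 by edgeR), and 44.8% of its length overlaps other genes and is not counted. The further collagen receptor chains had log2 fold changes of -0.36 (Itga2), 0.07 (Itga10) and 0.50 (Itga11), and the groups overlapped. The laminin receptor chains Itga3 and Itga6 were at 0.05 and -0.09. Itga3 was well counted, at 51.2 ± 3.48 CPM in controls and 52.9 ± 2.89 CPM in mutants, with an SE of 0.11. Itga4 and Itga9, chains of receptors for VCAM1, were at -0.83 and 0.06 on the log2 scale. Itgav, the αv chain of the vitronectin receptors, was at -0.22, the platelet chain Itga2b at -0.12, and the leukocyte chains Itgad and Itgae at 0.69 and 0.39. Itgad had 12 to 51 reads per library (SE 0.36) and Itgae 11 to 29 (SE 0.42). Parts of Itga10 (39.7%), Itgad (28.3%) and Itgav (26.8%) also overlap other genes.

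Itgb1 encodes β1, the common partner of α5, α7 and α8. It was at 67.4, 65.4, 68.3 and 69.9 CPM in controls 1 to 4 and at 77.2, 74.0 and 69.9 CPM in mutants 6, 7 and 8, and mutant 8 lay level with control 4. The mean was 67.7 ± 1.90 CPM over the controls and 73.7 ± 3.66 CPM over the mutants, a log2 difference of 0.12 (SE 0.10; adjusted p 0.524 by edgeR). The α chains thus differed in both directions beside a β1 transcript for which no difference was called.

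Itgb6 encodes β6, the partner of αv in a receptor that releases active TGF-β in epithelia, and it was the β gene called higher. It had few reads: controls 1 to 4 gave 23, 14, 7 and 8, and mutants 6, 7 and 8 gave 50, 35 and 34. These are 1.82, 1.06, 0.533 and 0.645 CPM against 3.91, 3.21 and 2.66 CPM, with every mutant above every control. Itgb6 (ENSMUSG00000026971.15, chromosome 2, 60598292 to 60722643, minus strand) rose by 1.68 on the log2 scale (SE 0.40; adjusted p 0.0204 by edgeR). The call was lost without control 2 (1.70, adjusted p 0.0537), control 3 (1.47, adjusted p 0.0587), mutant 6 (1.52, adjusted p 0.107) or mutant 7 (1.69, adjusted p 0.0755).

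Itgb8 encodes β8, another partner of αv in the activation of TGF-β. In controls 1 to 4 it was at 7.77, 9.07, 6.85 and 9.60 CPM, and in mutants 6, 7 and 8 at 13.9, 10.5 and 9.54 CPM, with mutant 8 just below control 4. The log2 fold change of 0.44 did not reach a call (SE 0.20; unadjusted p 0.046, adjusted p 0.211 by edgeR). Itgb3, Itgb4, Itgb5 and Itgb7 had log2 fold changes of -0.08, 0.31, -0.22 and -0.17 and overlapped between the groups. In total, 3 of 15 tested α genes and 1 of 7 tested β genes were called, beside 9.42% of all tested genes.

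The 4 untested members are leukocyte integrins, which microglia carry in the brain. Itgal had 32 reads, Itgb2 20 reads and Itgax 3 reads over the 7 libraries together. Itgam was listed at 0 in each, but 99.9% of its span lies in Gm49368, an annotated gene on the same strand. Microglial markers (8 genes, 0 called, P2ry12 listed at 0) summed to 68.6 to 85.9 CPM in the controls and 84.2 to 90.2 CPM in the mutants.

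Npnt, the gene of the α8β1 ligand nephronectin, had the lowest adjusted p of the members. In controls 1 to 4 it was at 59.6, 65.4, 55.4 and 63.0 CPM, and in mutants 6, 7 and 8 at 14.4, 16.2 and 12.6 CPM. Both groups were tight, and they lay far apart. Npnt (ENSMUSG00000040998.18, chromosome 3, 132881745 to 132950291, minus strand) fell by 2.08 on the log2 scale (SE 0.13; adjusted p 3.17e-06 by edgeR), which is 4.23-fold. The ligand was lower, and its receptor chain Itga8 higher, in the same 3 libraries.

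The promoters of this ligand and this receptor chain are shown because their transcripts went in opposite directions in animals with a mutant of a DNA-binding receptor. Thyroid hormone receptors are known to bind the hexamer AGGTCA, often as a direct repeat with a short spacer. Both sequences are the 250 bases before a RefSeq start site on GRCm38.p6, written 5′ to 3′ on the strand of the gene, and capitals mark AGGTCA, which was searched on both strands. RefSeq gives Npnt 2 windows, and the printed one, at chr3:132950292-132950541 (minus strand), is the one with the hexamer, while the other, which lies inside the annotated gene, holds 0. The window of Itga8 lies at chr2:12301945-12302194 (minus strand).
Npnt: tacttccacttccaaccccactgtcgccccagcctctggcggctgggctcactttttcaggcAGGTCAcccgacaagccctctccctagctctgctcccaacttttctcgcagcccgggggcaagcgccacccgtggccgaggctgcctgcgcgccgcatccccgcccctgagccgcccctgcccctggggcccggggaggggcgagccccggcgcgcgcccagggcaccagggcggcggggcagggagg
Itga8: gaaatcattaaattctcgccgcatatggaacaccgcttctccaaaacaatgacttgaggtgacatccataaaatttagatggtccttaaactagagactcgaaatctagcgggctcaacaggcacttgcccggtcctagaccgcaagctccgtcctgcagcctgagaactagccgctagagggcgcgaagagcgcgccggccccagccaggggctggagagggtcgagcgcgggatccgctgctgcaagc
The printed window of Npnt held the hexamer 1 time, beginning 188 bases before the start site, and these letters are not in the window of Itga8. RefSeq windows were found for 29 of the 45 members (5 of the 9 called), 35 windows in all, and AGGTCA was in 1 of them, the printed one of Npnt, against 14.0% of 32851 windows over all genes. The direct repeat of the hexamer with 4 bases between was in 0 of the 35 windows and in 5 of all windows. A match describes the letters and not a binding site.

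Laminin chains gave 4 of the 9 calls, 2 in each direction, from 11 tested genes, where 9.42% of all tested genes were called. The groups did not overlap in 7 of the 11, against 22.0% of all tested genes. Lama3 encodes α3, the α chain of the laminin of the skin. Its level was 54.6, 69.8, 71.2 and 56.6 CPM in controls 1 to 4 and 21.8, 22.2 and 16.2 CPM in mutants 6, 7 and 8. All mutants lay far below the lowest control, number 1. Lama3 (ENSMUSG00000024421.16, chromosome 18, 12333819 to 12583013, plus strand) fell by 1.65 on the log2 scale (SE 0.16; adjusted p 6.04e-05 by edgeR), which is 3.14-fold.

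Lama4 encodes α4, the laminin α chain typical of vessels. Controls 1 to 4 held 53.9, 75.3, 62.6 and 93.8 CPM, and mutants 6, 7 and 8 held 38.0, 37.8 and 43.8 CPM, so the controls were spread more widely than the mutants. Lama4 (ENSMUSG00000019846.11, chromosome 10, 38965515 to 39110188, plus strand) fell by 0.84 on the log2 scale (SE 0.17; adjusted p 0.0088 by edgeR). The call was lost without mutant 6 (-0.81, adjusted p 0.0579) and without mutant 7 (-0.80, adjusted p 0.0599).

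Lama1 encodes α1, a chain of the first laminin made in the embryo. Its level was 17.4, 22.6, 24.0 and 21.5 CPM in controls 1 to 4 and 33.5, 32.5 and 33.5 CPM in mutants 6, 7 and 8, which were almost equal. Lama1 (ENSMUSG00000032796.8, chromosome 17, 67697259 to 67822647, plus strand) rose by 0.63 on the log2 scale (SE 0.14; adjusted p 0.0115 by edgeR). The call was lost without mutant 6 (0.63, adjusted p 0.0569), mutant 7 (0.65, adjusted p 0.0504) or mutant 8 (0.63, adjusted p 0.0565).

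Lamb1 encodes β1, a chain found in laminins with α1 or α4. Controls 1 to 4 held 42.0, 43.5, 46.7 and 45.3 CPM, and mutants 6, 7 and 8 held 63.6, 58.8 and 53.1 CPM, all above the controls. Lamb1 (ENSMUSG00000002900.16, chromosome 12, 31265234 to 31329644, plus strand) rose by 0.40 on the log2 scale (SE 0.11; adjusted p 0.0374 by edgeR), the highest adjusted p of the 9 calls. Without control 2, control 3, mutant 6, mutant 7 or mutant 8 the call was lost (0.33 to 0.47, with adjusted p-values of 0.0618 to 0.181), as it was with no filter on low counts (0.40, adjusted p 0.0556).

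A further 3 laminin chains did not overlap between the groups and were not called. Lamc1, the γ chain of most laminins, was at 50.1, 56.7, 54.4 and 62.8 CPM in controls 1 to 4 and at 46.5, 42.6 and 42.1 CPM in mutants 6, 7 and 8 (-0.36 on the log2 scale, SE 0.11; adjusted p 0.0751 by edgeR). Lamb3, a partner of α3, was at 7.53, 7.63, 8.83 and 8.95 CPM and 12.4, 10.7 and 12.7 CPM in the same order (0.53, SE 0.17; adjusted p 0.0725 by edgeR). Lama5, an α chain of mature basement membranes, was at 10.1, 8.69, 8.37 and 8.47 CPM and 6.96, 6.98 and 5.71 CPM (-0.44, SE 0.19; adjusted p 0.179 by edgeR). Of the span of Lamb3, 44.9% is shared with other genes and not counted. Lamb3 passed the threshold without control 4 (0.58, adjusted p 0.0485) and Lamc1 without control 1 (-0.40, adjusted p 0.0286). Lamb3 also passed in DESeq2 (adjusted p 0.0331) and in limma-voom with sample quality weights (0.0246). Lamc1 passed in that limma-voom fit (adjusted p 0.0146) and in edgeR without controls 1 and 4 (0.0298). Each passed in 3 of 16 alternative fits.

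Lama2, the α chain of muscle and glial basement membranes, Lamb2 and Lamc3 overlapped between the groups and were not called (log2 fold changes of -0.21, -0.72 and -0.31). Without 1 library each time, Lamb2 ran from -1.11 to -0.33 and Lamc3 from -0.83 to -0.07.

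**Figure D2:**
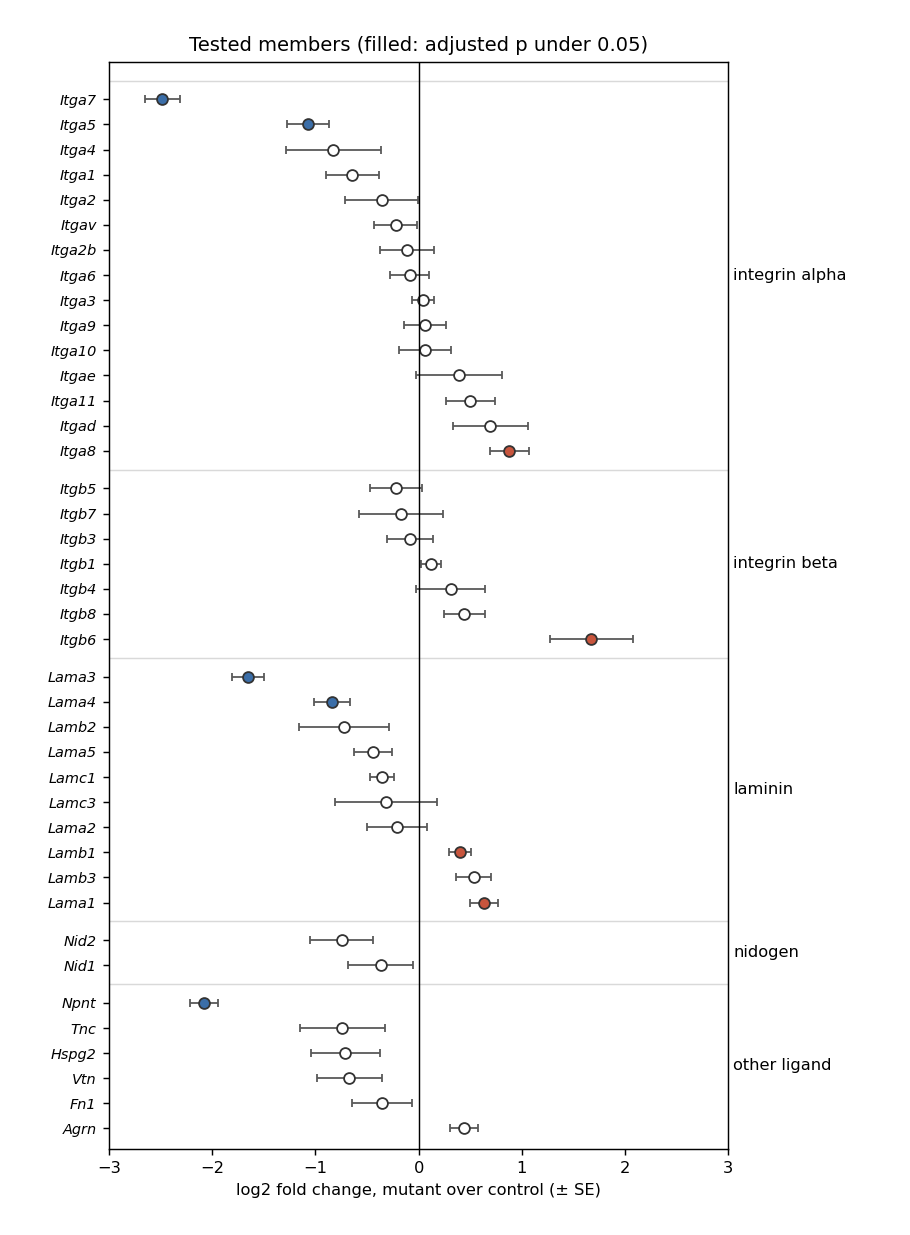
Log2 fold change of mutant over control (horizontal axis) of the tested members described here, grouped by role; bars are the SE of edgeR's fit, and filled points have an adjusted p under 0.05 (blue lower, red higher). Itga7 (-2.49) and Npnt (-2.08) lie farthest left and Itgb6 (1.68) farthest right, while Itga3 (0.05) and Itgb1 (0.12) lie near 0.

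Agrn encodes agrin, the organiser of the nerve-muscle synapse, which binds dystroglycan and laminin. Controls 1 to 4 held 341, 303, 346 and 277 CPM, and mutants 6, 7 and 8 held 472, 425 and 394 CPM, without overlap. The log2 fold change was 0.44 (SE 0.14), and agrin missed the threshold (adjusted p 0.0637 by edgeR). It passed in DESeq2 (adjusted p 0.00795), in limma-voom with sample quality weights (0.0141) and with no filter on low counts (0.0437). Without control 1 (0.48, adjusted p 0.0253) or control 4 (0.38, adjusted p 0.049) it passed as well. Of 16 alternative fits, agrin passed in 6 only. It passed in 2 of the 7 edgeR fits without 1 library, where the highest adjusted p was 0.252.

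The nidogens, linkers between laminin and collagen IV, were not called. Nid2 was at 4.20, 4.23, 3.50 and 2.34 CPM in controls 1 to 4 and at 1.88, 1.74 and 2.74 CPM in mutants 6, 7 and 8, with mutant 8 above control 4 (-0.75 on the log2 scale, SE 0.31; unadjusted p 0.0309, adjusted p 0.166 by edgeR). Nid1 had a log2 fold change of -0.37. Fibronectin (Fn1, -0.36), perlecan (Hspg2, -0.71), vitronectin (Vtn, -0.67) and tenascin-C (Tnc, -0.74) overlapped between the groups and were not called. Hspg2 passed in 1 of 16 alternative fits, limma-voom with sample quality weights (-0.88, adjusted p 0.0457). Of the span of Tnc, 77.0% is shared with other genes, which leaves 13 to 51 reads per library.

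Levels of different members can be compared per length only, here as mean CPM per kb of the span that no other gene shares. On this scale Agrn was first of the 45 members in both groups, at 9.84 in controls and 13.4 in mutants. It was followed in controls by Vtn (3.49), Itga3 (1.58), Itga7 (1.50), Itgb1 (1.42) and Npnt (0.889). Among the controls, Itga7 (1.50 ± 0.242) did not differ beyond its spread from its neighbours Itga3 (1.58 ± 0.108) and Itgb1 (1.42 ± 0.0399). Itga7 went from rank 4 in controls to rank 11 in mutants (0.269), and Npnt from rank 6 to rank 15 (0.211). Per kb of exon instead, Agrn was again first in controls, followed by Itgb1 and Npnt, with Vtn at rank 9 and Itga7 at rank 10.

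**Figure D3:**
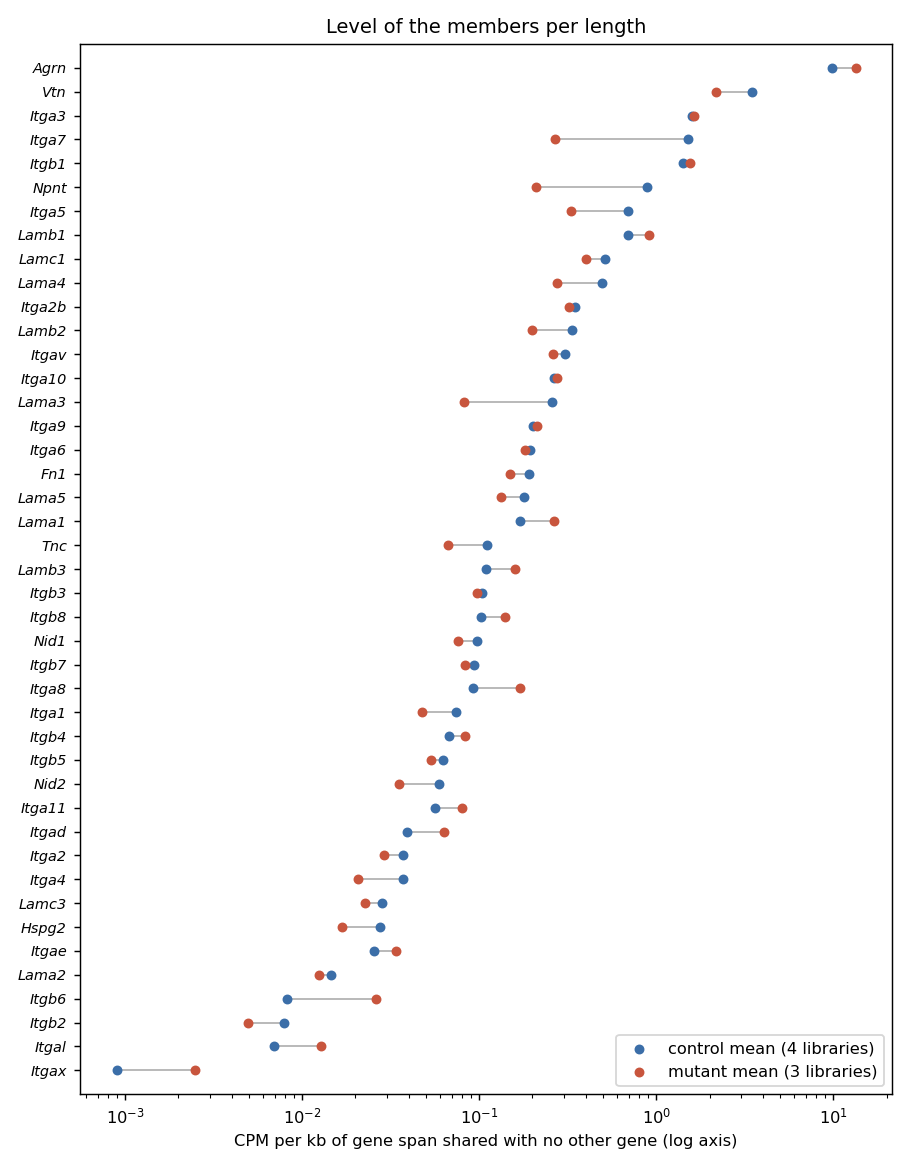
Mean CPM per kb of unshared gene span (horizontal, log axis) in controls (blue, 4 libraries) and mutants (red, 3 libraries), with the members described here ordered by their control mean; those with a control mean of 0 are left out. The points of Itga7 (1.50 against 0.269) and Npnt (0.889 against 0.211) lie far apart, while those of Itga3 (1.58 against 1.64) and Itgb1 (1.42 against 1.55) nearly coincide.

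Vessel cells and fibroblasts are main makers of basement membrane, so their markers were read in the same libraries. Endothelial markers (8 genes, 0 called, all 8 with a log2 fold change below 0 and none listed at 0) summed to 56.0 to 126 CPM in the controls and 52.7 to 82.9 CPM in the mutants. Mural cell markers (7 genes without the member Vtn, 0 called, none listed at 0) summed to 32.2 to 88.4 CPM and 37.8 to 53.9 CPM in the same order. Of these 7 genes, 3 had a log2 fold change above 0 and 4 below. The groups did not overlap in 2 of the 7, both higher in the mutants, against 22.0% of all tested genes. Fibroblast markers (8 genes, 0 called, Igf2 listed at 0) summed to 11.0 to 22.2 CPM and 13.7 to 19.6 CPM. The sums overlapped between the groups in all 3 lists.

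The endothelial gene Cldn5 and the mural gene Rgs5 ordered the controls alike, with control 1 highest, then 4, 2 and 3. Not all endothelial markers had this order. Flt1 was at 20.9, 16.1, 8.37 and 24.3 CPM in controls 1 to 4 and Tek at 11.1, 13.7, 10.4 and 21.3 CPM, both highest in control 4. Itga1, Itgav and Lamb2 had the order of Flt1 and Itgb8 that of Tek, and the shares of these orders over all genes were not counted. The members Fn1, Itga4, Nid1 and Vtn had the order of Cldn5 and Rgs5, which is 9.76% of the 41 tested members against 2.77% of all tested genes. Of the 9 called members 0 had it, but an order so rare over all genes is seldom met in 9 genes. The 0 therefore tells nothing about the called members, and the part of vessel cells in their changes was not tested. A further fit, chosen after the data were seen, took the mean log2 level of the endothelial and mural markers as a term. It called 1147 of the 16448 tested genes, against 1549 in the reported fit. Of the 9 called members, 8 kept their call and Lamb1 did not (0.38, adjusted p 0.0853 by edgeR). Among called genes of the lists described below, Fbln1 (adjusted p 0.0704), Col4a4 (0.063) and Ntn4 (0.0737) lost their calls. In that fit Itga7 was at -2.50, Npnt at -2.08, Lama3 at -1.71 and Lama4 at -0.82 on the log2 scale. How far such a marker term takes up the part of vessel cells was not tested.

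Marker sums of parvalbumin neurons, somatostatin neurons and astrocytes did not overlap between the groups, while those of VIP and LAMP5 neurons, oligodendrocytes and their precursors did. Within the overlapping sums, 4 of 6 VIP markers (2 higher, 2 lower) and 3 of 6 LAMP5 markers (1 higher, 2 lower) were called. So were 1 of 8 oligodendrocyte markers (higher) and 0 of 5 tested precursor markers. Of all tested genes, 9.42% were called. Markers of parvalbumin neurons (8 genes, 5 called lower, Cox6a2 listed at 0) summed to 807 to 985 CPM in the controls and 356 to 430.4 CPM in the mutants. Markers of somatostatin neurons (7 genes, 3 called higher and 1 lower) summed to 849 to 989 CPM and 1375 to 1667 CPM. Astrocyte markers (8 genes, 1 called lower, Gfap listed at 0) summed to 275 to 348 CPM and 215 to 236 CPM. Most of that sum is Slc4a4, and without it, a choice made after the data were seen, the other 7 genes overlapped (66.8 to 119 CPM and 71.9 to 81.2 CPM). The part of these differences in the changes of Itga7, Npnt, Lama3 and the other called members was not tested.

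**Figure D4:**
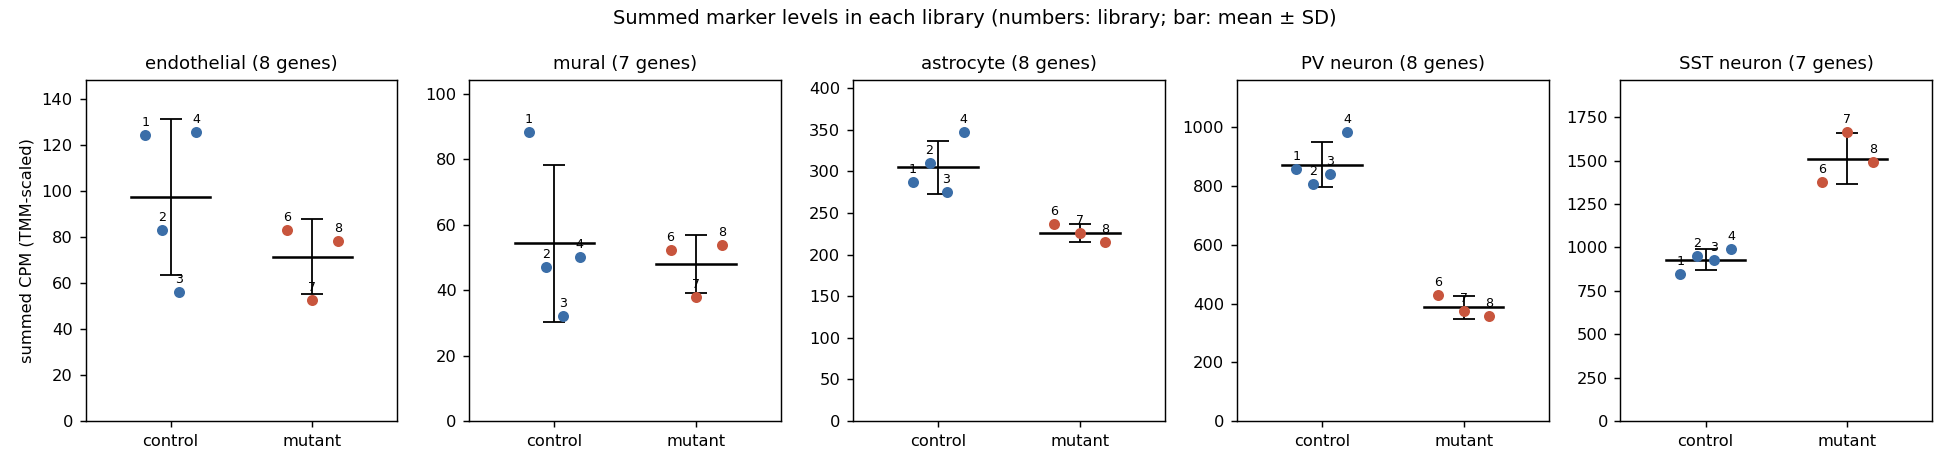
Summed CPM (vertical axes, from 0) of 5 marker lists in each library; points are libraries with their number, horizontal bars group means and error bars SD (n = 4 controls, n = 3 mutants). The endothelial (56.0 to 126 against 52.7 to 82.9) and mural sums overlap between the groups, and the astrocyte (275 to 348 against 215 to 236), parvalbumin (PV) and somatostatin (SST) sums do not.

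The partners of integrins inside the cell, such as talins, kindlins, focal adhesion kinase and the ILK complex, formed a list of 28 genes. Of these, 27 were tested and 2 were called, both lower, with a median log2 fold change of 0.06, where 9.42% of all tested genes were called at a median of -0.01. Parva, which links integrins to actin with ILK, fell from 20.1 ± 5.20 CPM to 11.0 ± 1.23 CPM (-0.87 on the log2 scale, SE 0.21; adjusted p 0.022 by edgeR). Kank2, which binds talin, fell from 10.3 ± 1.83 CPM to 4.17 ± 0.652 CPM (-1.30, SE 0.22; adjusted p 0.00293 by edgeR). The uncalled genes of the list with the most reads, not scaled by length, were the focal adhesion kinase gene Ptk2 (0.19) and the talin gene Tln2 (0.18). Parva lost its call without mutant 6 (-0.86, adjusted p 0.0928), mutant 7 (-0.79, adjusted p 0.119) or mutant 8 (-0.94, adjusted p 0.0632).

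Dystroglycan, its partners and other receptors of laminin and agrin formed a list of 16 genes. Of these, 15 were tested and 1 was called (median 0.05), where 9.42% of all tested genes were called. Utrn encodes utrophin, which ties dystroglycan to actin. In controls 1 to 4 it was at 290.1, 398, 374 and 475 CPM, and in mutants 6, 7 and 8 at 195, 179.8 and 174 CPM, without overlap. Utrn fell by 1.07 on the log2 scale (SE 0.16; adjusted p 0.00149 by edgeR). Its relative Dmd, the gene of dystrophin, was not called (-0.11).

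Other ligands of integrins formed a list of 34 genes, of which 25 were tested and 10 called, 6 higher and 4 lower (median 0.26). Of all tested genes, 9.42% were called, 4.63% higher and 4.78% lower. The paralogs Thbs1 and Thbs2 encode thrombospondins, secreted proteins known to promote synapse formation. Thbs1 was at 4.04, 3.93, 5.40 and 2.26 CPM in controls 1 to 4 and at 15.3, 17.1 and 15.7 CPM in mutants 6, 7 and 8, and rose by 2.03 on the log2 scale (SE 0.24; adjusted p 0.000275 by edgeR). Thbs2 was at 18.8, 16.1, 18.6 and 13.0 CPM and 3.91, 4.13 and 3.21 CPM in the same order, and fell by 2.15 (SE 0.21; adjusted p 7.15e-05 by edgeR). In each gene the groups lay far apart, in opposite directions.

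Fras1, Frem1 and Frem2 encode the Fraser complex, proteins of the basement membrane that hold nephronectin near α8β1. Fras1 was at 35.8, 49.2, 44.0 and 49.4 CPM in controls 1 to 4 and at 15.2, 14.3 and 17.6 CPM in mutants 6, 7 and 8, and fell by 1.50 on the log2 scale (SE 0.15; adjusted p 9.38e-05 by edgeR). Frem2 fell by 1.14, from 7.57 ± 1.77 CPM to 3.43 ± 1.02 CPM (SE 0.27; adjusted p 0.0211 by edgeR). Frem1 rose by 0.68, with 39.7, 43.8, 41.6 and 50.2 CPM in the controls and 91.4, 59.0 and 60.7 CPM in the mutants, of which mutant 6 stood above the others (SE 0.16; adjusted p 0.0165 by edgeR). Without mutant 6, Frem1 (0.45, adjusted p 0.0941) and Frem2 (-0.94, adjusted p 0.11) lost their calls. Frem1 also lost its call without control 2 (0.68, adjusted p 0.0548) or control 3 (0.66, adjusted p 0.0553), and Frem2 without control 2 (-1.02, adjusted p 0.0666), control 3 (-1.07, adjusted p 0.0644) or mutant 7 (-1.13, adjusted p 0.0929).

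The other 5 called ligands were the fibulin genes Fbln1 (1.45) and Fbln2 (1.20), the fibrillin gene Fbn2 (1.11) and periostin (Postn, 1.29), all higher, and Ltbp3 (-0.79), which encodes a TGF-β binding protein and was lower. Fbn2 went from 23.6 ± 2.01 CPM to 51.1 ± 4.61 CPM and Fbln2 from 15.2 ± 3.25 CPM to 35.2 ± 4.37 CPM. Fbln1, at 1.10 ± 0.588 CPM and 3.03 ± 0.867 CPM, lost its call without control 3 (1.38, adjusted p 0.112), mutant 6 (1.51, adjusted p 0.114), mutant 7 (1.62, adjusted p 0.0792) or mutant 8 (1.21, adjusted p 0.21). The uncalled ligands of the list with the most reads, again not scaled by length, were reelin (Reln, 0.43, adjusted p 0.162) and Edil3 (-0.11). Reln was called without control 4 (0.49, adjusted p 0.0496).

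Basement membrane collagens and proteins that act on them formed a list of 16 genes. Of these, 15 were tested and 5 called, 3 higher and 2 lower (median 0.25), where 9.42% of all tested genes were called (4.63% higher, 4.78% lower). Col4a1, a chain of the collagen IV network, rose from 29.8 ± 2.48 CPM to 45.2 ± 4.21 CPM (0.60, SE 0.12; adjusted p 0.00839 by edgeR), and its partner Col4a2 was not called (0.34, adjusted p 0.0656). Pxdn, the peroxidase that cross-links collagen IV, rose from 50.9 ± 6.74 CPM to 101 ± 10.3 CPM (0.99, SE 0.12; adjusted p 0.000412 by edgeR). Smoc1 (1.41) was also higher, and the netrin gene Ntn4 (-0.72) and the collagen IV gene Col4a4 (-1.08) were lower, while Sparc (-0.29), a collagen-binding protein gene, was not called. The call of Col4a1 was lost without mutant 6 (0.54, adjusted p 0.0593), and that of Smoc1 without mutant 6 (1.30, adjusted p 0.073) or mutant 7 (1.43, adjusted p 0.0537). Col4a2 was called without control 1 (0.38, adjusted p 0.0313) or control 4 (0.37, adjusted p 0.0251). Col4a4 lost its call without control 3, mutant 6, mutant 7 or mutant 8 (adjusted p 0.0737 to 0.143), and Ntn4 without control 2, control 3, mutant 6, mutant 7 or mutant 8 (adjusted p 0.0612 to 0.191).

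Of the 9 called members, Itga7, Npnt, Lama3 and Itga5 were called in each of 16 alternative fits. Their log2 fold changes ran from -2.60 to -2.41 (Itga7), -2.17 to -1.97 (Npnt), -1.82 to -1.51 (Lama3) and -1.20 to -0.99 (Itga5). The other 5 called members kept their direction in each of these fits and lost their call in at least 2. Of the 32 tested members that were not called, 27 were called in none of the 16 fits.

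**Figure D5:**
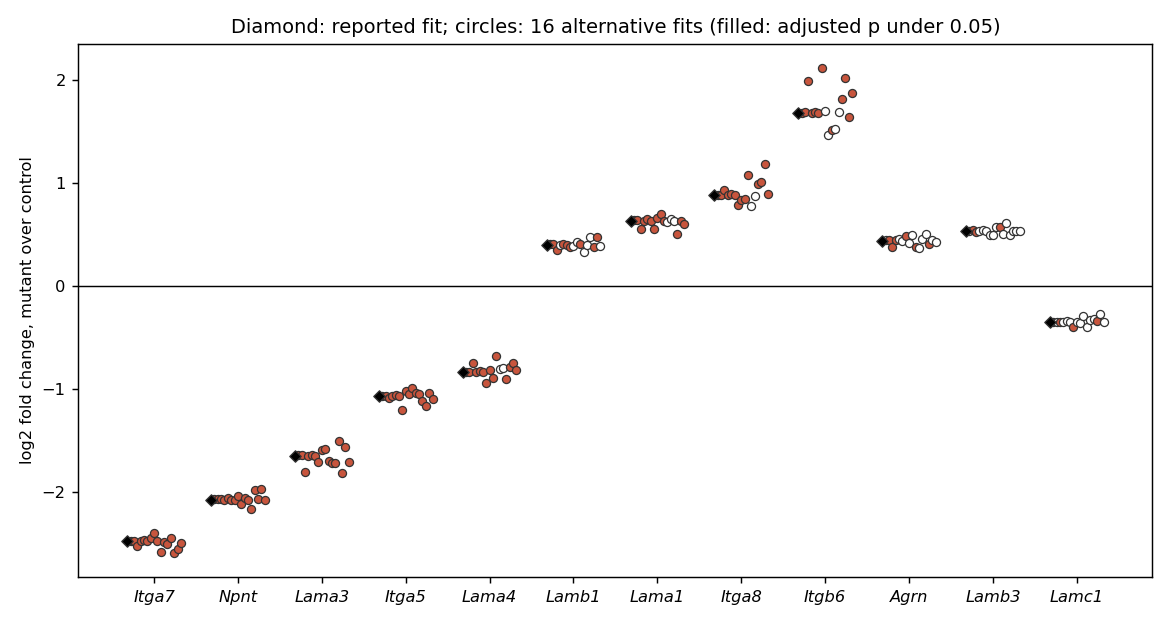
Log2 fold change of mutant over control (vertical axis) of the 9 called members and of Agrn, Lamb3 and Lamc1 in the reported fit (diamonds) and in 16 alternative fits (circles, filled where the adjusted p is under 0.05). The circles of Itga7 (-2.60 to -2.41) and Npnt (-2.17 to -1.97) are all filled, and no gene shown crosses 0.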

How the data were processed

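The deposited tables give read counts for every annotated gene, in whole numbers and without normalization. Per the labels, nuclear RNA was amplified with SMART-Seq v4 and sequenced as paired-end Nextera XT libraries. The submitters' processing notes name Bowtie2 2.5.3 and the builds mm10 and GRCm38; the counting program is not given in the sources used here. Coordinates and symbols came from GENCODE M21 (GRCm38), which lists all 55450 identifiers of the tables, and promoters from RefSeq (GRCm38.p6).

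Counts were filtered with filterByExpr (least count 10, least total 15), scaled by TMM and fitted in R 4.3.3 with edgeR 4.0.16 (glmQLFit, robust, group as the only term). The p-values are two-sided and adjusted over all 16448 tested genes, and the SE is the log2 fold change divided by the square root of F. Alternatives used DESeq2 1.42.0, limma 3.58.1, other filters or fewer libraries. Library numbers are those of the sample titles; from control 4 to mutant 8 the deposited file names carry other numbers than the labels, and files were taken with the samples they were deposited under. Which of mutants 7 and 10 gave their common counts is not known. The fits were also run on simulated counts, but no outcome of these runs is given here, so they lend the calls no weight. The labels give no batch or litter, and p-values measure the spread between single cortices. The members are named, and of the other lists each called gene and the 2 uncalled ones of highest mean CPM, except that 1 member and 1 list gene are not reported here. The members, lists and alternatives were chosen with earlier results of these data known.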

Additional observations from a re-analysis of the deposited data

Results flagged for a closer look

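Each of the 41 tested members was searched for a control far from the other 3, by Dixon's ratio of the gap to the range; the 3 mutants are too few for this. The ratio passed the critical value in 2 members, and chance alone flags about 1 value in 20. Itga6 reached 26.45 CPM in control 4, while the other controls lay between 16.3 and 17.8 CPM (ratio 0.854). Its log2 fold change was -0.09 with control 4 and 0.10 without it, and it was called in neither fit. Tnc reached 3.854 CPM in control 2, which is 51 reads, while the other controls lay between 1.52 and 1.90 CPM (ratio 0.837), and its log2 fold change was -0.74 with control 2 and -0.33 without it, called in neither fit.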

How the results depend on the processing

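With limma-voom and sample quality weights together, 3147 genes, 8 lower members and 29 genes of the other lists were called, and without controls 1 and 4 together 2778 genes were called. An absolute log2 fold change over 1 left 641 genes and 1 higher member, and an adjusted p under 0.01 left 690 genes, 0 higher members and 11 list genes. Leaving out 1 library each time gave 734 to 2347 genes, 0 to 6 higher members, 4 to 6 lower members and 10 to 24 list genes. Among these fits without 1 library, the count of genes, 1549 as reported, moved most without control 3 (1016), control 4 (2347), mutant 6 (766), mutant 7 (734) or mutant 8 (816), and that of list genes, 18 as reported, without mutant 6 (10). Of the members and list genes named here, no called gene changed direction in any fit. Signs turned in genes without a call with the weighted limma-voom in Fn1 (0.074), Itga4 (0.0036), Itga6 (0.0088), Itga9 (-0.024), Itgav (0.053), Nid1 (0.13) and Sparc (0.086). They did so without controls 1 and 4 in Fn1 (0.17), Itga3 (-0.0049), Itga6 (0.076), Itga9 (-0.044), Itgav (0.10), Nid1 (0.21) and Sparc (0.13). They did so without control 4 and mutant 8 in Itga3 (-0.00031), Itga6 (0.16), Itgb4 (-0.16), Dmd (0.12) and Edil3 (0.14). Without 1 library, the log2 fold changes of genes whose sign turned ran from -0.23 to 0.079 for Dmd, -0.25 to 0.12 for Edil3, -0.020 to 0.17 for Itga10, -0.25 to 0.10 for Itga2b, -0.18 to 0.10 for Itga6, -0.11 to 0.18 for Itga9, -0.17 to 0.079 for Itgb3, -0.015 to 0.46 for Itgb4, -0.39 to 0.048 for Itgb7, -0.44 to 0.040 for Lama2 and -0.47 to 0.14 for Sparc. In each case the cause was not tested. No paired analysis was possible because the 2 groups share no replicate number. Depth limits members under about 2 CPM, whose SE reaches 0.49 (Lamc3).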
